A study of Mus musculus with 32 samples.

Results

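The 8 genes followed here encode the kinases, the substrate and the phosphatase subunits of a single translational switch, the phosphorylation of eIF2α. They are the 4 eIF2α kinases Eif2ak1, Eif2ak2, Eif2ak3 and Eif2ak4, the eIF2 subunits Eif2s1 and Eif2s2, and the phosphatase subunits Ppp1r15a and Ppp1r15b. They were chosen by symbol, and all 8 were found among the 23035 genes of the footprint tables and the 39017 genes of the total RNA tables. NSCs from the ventricular-subventricular zone of C57BL/6 mice aged 8 to 12 weeks were grown ex vivo, exposed to vehicle or IFN-β from 48 h after they were seeded, and collected after 2 h or 14 h. Ribosome-protected fragments (footprints, counted in the CDS) and total RNA (counted over the whole gene) were sequenced from 4 replicates of each treatment at each time, in 32 libraries. The replicate numbers are 2, 3, 5 and 6 at 2 h and 1 to 4 at 14 h, and the methods call them biological replicates. All groups share the wild-type strain, a culture with growth factors, and a short incubation with cycloheximide before lysis, which arrests ribosomes on the mRNA.

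eIF2 is the 3-subunit factor that brings the initiator tRNA to the ribosome, and each kinase phosphorylates its α subunit when a different stress is sensed. Phosphorylated eIF2 blocks eIF2B, the exchange factor that reloads eIF2 with GTP, so that most initiation slows while a few mRNAs with upstream reading frames, such as Atf4, are translated more. PKR, the product of Eif2ak2, binds double-stranded RNA and is a classical interferon-stimulated gene. HRI (Eif2ak1) answers to haem shortage and mitochondrial stress, PERK (Eif2ak3) to unfolded protein in the endoplasmic reticulum, and GCN2 (Eif2ak4) to amino acid shortage. GADD34 (Ppp1r15a) and CReP (Ppp1r15b) bring protein phosphatase 1 to eIF2α, GADD34 as the inducible and CReP as the constitutive subunit. Footprints report ribosomes on the mRNAs of these proteins, and neither the phosphorylation of eIF2α nor kinase activity was measured in these libraries.

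The promoters were read for the core of the interferon-stimulated response element (ISRE), because 1 of the 8 genes is a known interferon target. RefSeq promoters of GRCm38.p6, running from 250 bases before to 50 after the start site, were at hand for 7 of the 8 genes. The search was set on the 250 bases before the start, and was widened to the whole window after the result was seen, which brought in the match of Eif2ak2. The letters searched, on both strands, were GAAA, any 2 bases, and GAAA again. Windows of 30 bases around the 3 matches are given 5′ to 3′ on the strand of the gene, with the match in capitals.
Eif2ak2: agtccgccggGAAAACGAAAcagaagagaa
Ppp1r15a: aaaataaaagGAAAGGGAAAtggcacggta
Eif2s1: cctggagcaaGAAACAGAAActtacctctc
The Eif2ak2 window is chr17:78882535-78882564 on the minus strand, and its match covers bases 19 to 28 after the RefSeq start, inside the gene as annotated. The Ppp1r15a window is chr7:45526469-45526498 on the minus strand, with the match 220 to 211 bases before the start. The Eif2s1 window is chr12:78861850-78861879 on the plus strand, with the match 212 to 203 bases before the RefSeq start and inside the longer gene of GENCODE M21, which begins at base 78861819. Over the whole window 3.44% of 32851 promoters held the ISRE letters, and over the 250 bases before the start 2.98% did. In that shorter window 2 of the genes, Ppp1r15a and Eif2s1, had a match. The letters TGATGNAA, the core of the element that ATF4 binds with a C/EBP partner, were in none of the 7 genes and in 3.97% of all promoters. A match is a description of the sequence and not evidence that a factor is bound there.

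The footprint libraries held 2956297 to 10505108 counts and the total RNA libraries 1370008 to 7877753. The 6 of 7 interferon check genes that could be tested at 2 h and all 7 at 14 h were higher with IFN-β. All 8 neural stem cell markers were measured, with summed levels of 10559 to 17818 CPM (counts divided by the TMM-scaled library size). Of the microglial markers Aif1 and Cx3cr1 were at 0 in every footprint library, of the endothelial markers Cldn5 had 1 footprint in all, and of the oligodendrocyte markers Mog had 2 in all. Of 6 microglial markers P2ry12 alone had the counts to be tested, and it was higher with IFN-β at 14 h by 1.62 on the log2 scale. At that time the microglial sum was 5.99 to 8.81 CPM in vehicle cultures and 21.2 to 26.7 in IFN-β cultures. This sum was almost all P2ry12, at means of 7.46 and 23.1 CPM, and its part in the results was not tested. In total RNA at 14 h P2ry12 was instead lower with IFN-β, at means of 74.4 CPM with vehicle and 36.7 with IFN-β (log2 difference -1.03). Csf1r and Cx3cr1 did not pass there, at 211 and 164 CPM with vehicle and 249 and 179 with IFN-β. Both 2 h cultures numbered 3 stood apart from the other 2 h cultures in several of the genes described here, in the same direction with vehicle and with IFN-β. They also stood apart as whole footprint libraries, by the chi-square per gene between pairs of a group. With vehicle, culture 3 was at 30.66 to 48.2 against the others, which were at 4.04 to 5.95 among themselves. With IFN-β, culture 3 was at 21.45 to 34.9 and the others at 4.28 to 5.88. A further difference separated the times and not the treatments. The Y-linked copy of eIF2γ, Eif2s3y, had 252 to 520 footprints per library at 2 h and 0 to 2 at 14 h, and the Y-linked genes Ddx3y, Uty and Kdm5d, added after these values had been seen, had 171 to 404 at 2 h and 0 to 17 at 14 h. The methods state that the mice were male.

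Eif2ak2 was the only kinase whose footprints passed the test, and it rose at both times. At 2 h its footprints were 31.8, 27.6, 25.9 and 24.7 CPM in the vehicle cultures 2, 3, 5 and 6. They were 153, 173, 175 and 129 CPM in the IFN-β cultures of the same numbers. The lowest IFN-β culture was thus far above the highest vehicle culture. The increase was 5.71-fold (95% interval 4.67 to 6.97), a log2 fold change of 2.51 ± 0.13 (SE, n = 4 against 4; edgeR's quasi-likelihood fit, p adjusted by Benjamini and Hochberg over all genes tested, adjusted p = 2.92e-06). An exact permutation test on the 8 library values, two-sided, gave p = 0.0286, the smallest that 4 against 4 allows. Its 70 arrangements did not keep same-numbered cultures paired, although these deviated together. In bulk cultures, more ribosomes per mRNA, more mRNA per cell and more cells that express a gene cannot be told apart from footprints alone. CPM are also relative to the other footprints of a library, so a change in total translation would not show in them. A rise, a fall or no change is meant in that relative sense throughout.

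At 14 h the vehicle cultures 1 to 4 held 28.1, 25.5, 27.2 and 25.7 CPM of Eif2ak2 footprints. With IFN-β the cultures held 325, 339, 360 and 342 CPM. The groups were again separate, and the 4 values of each lay close together. The increase was 12.9-fold (95% interval 11.8 to 14.1), a log2 fold change of 3.69 ± 0.06 (adjusted p = 4.02e-14 in edgeR), and the exact permutation test again gave p = 0.0286. The rank of Eif2ak2 by log2 fold change was 152 of 12104 genes tested at 2 h and 170 of 12113 at 14 h.

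**Figure D1:**
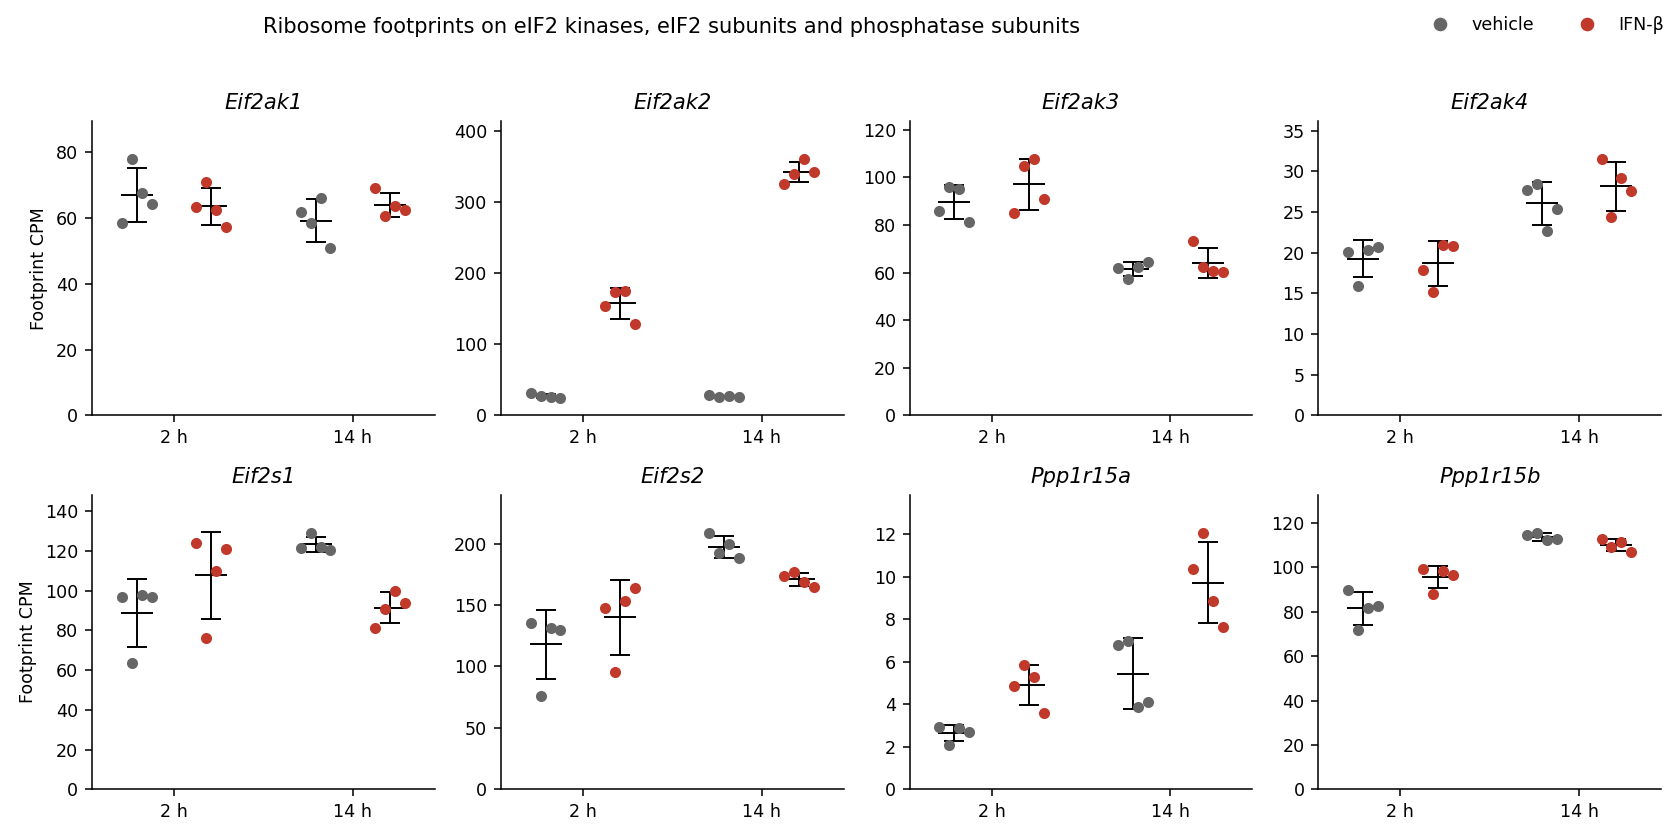
Footprint CPM (y axis, from 0, a scale for each gene) of the 8 genes in each library at 2 h and 14 h, vehicle in grey and IFN-β in red, with the mean and SD of 4 libraries in black. Eif2ak2 is separate between treatments at both times, with 128.5 CPM as its lowest IFN-β value, while the other kinases overlap.

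The other 3 kinases did not pass the test at either time. At 2 h footprints of Eif2ak1 were 58.4 to 77.8 CPM in vehicle cultures and 57.2 to 70.9 in IFN-β cultures, and 50.8 to 66.1 against 60.5 to 69.0 at 14 h. The treatments overlapped at both times, with log2 differences of -0.08 (95% interval -0.32 to 0.16) and 0.11 (-0.07 to 0.28). For Eif2ak3 the levels were 81.1 to 95.8 CPM against 85.1 to 107.6 at 2 h, and 57.4 to 64.3 against 60.2 to 73.4 at 14 h. Its log2 differences were 0.12 (-0.11 to 0.34) and 0.04 (-0.11 to 0.19). Eif2ak4 gave 15.9 to 20.6 CPM against 15.2 to 20.9 at 2 h, and 22.7 to 28.5 against 24.4 to 31.5 at 14 h. Its log2 differences were -0.04 (-0.35 to 0.27) and 0.09 (-0.12 to 0.31). The adjusted p-values of the 3 kinases lay between 0.29 and 0.95 in edgeR.

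The share of each kinase among the 4 was computed from footprint CPM per kb of CDS, so that genes of unequal length can be set side by side. With vehicle Eif2ak1 held the largest share, 42.8% ± 3.1 (SD, n = 4) at 2 h and 44.0% ± 2.7 at 14 h. Eif2ak2 held 21.2% ± 2.8 and 23.9% ± 0.64 of the kinase footprints with vehicle. After IFN-β its share was 60.4% ± 2.0 at 2 h and 79.0% ± 1.7 at 14 h, above every vehicle library. The summed level of the other 3 kinases was 66.2 ± 5.7 CPM per kb with vehicle and 66.5 ± 5.1 with IFN-β at 2 h. At 14 h it was 55.0 ± 3.2 and 58.7 ± 4.2. Eif2ak4 was the lowest kinase in every group, at 3.52 to 5.29 CPM per kb as group means. The order of Eif2ak2 among the 8 genes, by level per kb, was 6 with vehicle at either time, 3 after 2 h of IFN-β and 1 after 14 h. With vehicle at 14 h its range overlapped that of Eif2ak3, the next above. At 2 h of IFN-β its range overlapped that of Eif2s1, the next above, whereas at 14 h its lowest library (211 CPM per kb) was above the highest of Eif2s2 (178). Footprints of Eif2s1, the substrate, per footprint on the summed kinases were 1.81 ± 0.12 with vehicle at 14 h and 0.346 ± 0.023 with IFN-β, both per kb, and 1.13 ± 0.27 and 0.693 ± 0.20 at 2 h. In the 2 h cultures 2, 3, 5 and 6 this ratio was 1.26, 0.735, 1.21 and 1.31 with vehicle and 0.811, 0.439, 0.635 and 0.885 with IFN-β. It was lower with IFN-β in all 4 same-numbered pairs, and the treatments overlapped through vehicle culture 3 alone.

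**Figure D2:**
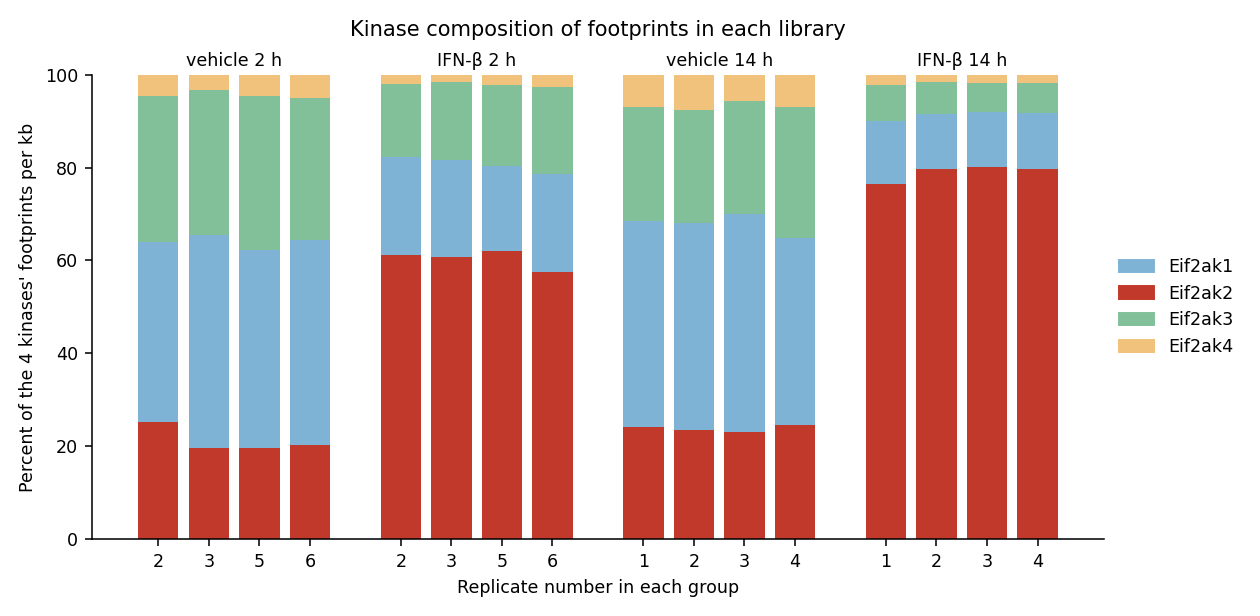
Percent of the 4 kinases' footprints per kb of CDS (y axis) held by each kinase in each of 16 footprint libraries (x axis, replicate numbers within groups). Eif2ak2 takes 19.6% to 25.3% of the footprints in vehicle libraries, and 57.4% to 61.9% at 2 h and 76.5% to 80.1% at 14 h with IFN-β.

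The substrate subunits fell at 14 h, and at 2 h they passed the test, as higher, when cultures were compared within their numbers or when both cultures numbered 3 were left out. Eif2s1, which encodes the phosphorylated α subunit, had 97.0, 63.3, 97.7 and 96.9 CPM of footprints in vehicle cultures 2, 3, 5 and 6 at 2 h. The IFN-β cultures of the same numbers had 124, 76.4, 110 and 121 CPM. Both cultures numbered 3 were low, and in each of the 4 same-numbered pairs the IFN-β culture was the higher. Without the replicate number as a block the log2 difference was 0.28 ± 0.18 and did not pass the test (adjusted p = 0.54). Same-numbered footprint cultures deviated together at both times, and with the number as a block the difference was 0.28 and passed (adjusted p = 0.00024 in edgeR). Without both cultures numbered 3, a comparison added after the values had been seen, it was also 0.28 (adjusted p = 0.016).

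At 14 h Eif2s1 fell. The vehicle cultures had 122, 129, 122 and 121 CPM and the IFN-β cultures 81.4, 90.8, 100 and 93.7 CPM, so that every IFN-β culture was below every vehicle culture. The log2 fold change was -0.42 ± 0.06 (adjusted p = 0.0001 in edgeR), with IFN-β at 0.747 of vehicle (95% interval 0.679 to 0.820).

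Eif2s2, the β subunit that contacts eIF2B and eIF5, followed the same course with smaller changes. Its footprints at 2 h were 135, 75.9, 131 and 130 CPM with vehicle in cultures 2, 3, 5 and 6. With IFN-β they were 147, 95.6, 154 and 164 CPM. Cultures numbered 3 were again the lowest of both groups, and all 4 pairs were higher with IFN-β. The log2 difference of 0.25 ± 0.21 did not pass without the block (adjusted p = 0.68) and passed with it (0.25, adjusted p = 0.00058) and without both cultures numbered 3 (0.23, adjusted p = 0.034). At 14 h the levels were 209, 192, 200 and 189 CPM with vehicle and 174, 177, 169 and 165 with IFN-β. The groups did not overlap, and the decrease was -0.21 ± 0.05 on the log2 scale (adjusted p = 0.0054 in edgeR).

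Of the phosphatase subunits, Ppp1r15a rose at both times from low levels. At 2 h its footprints were 2.93, 2.09, 2.89 and 2.72 CPM in vehicle cultures 2, 3, 5 and 6. With IFN-β they were 4.87, 5.87, 5.29 and 3.62 CPM. These values rest on 15 to 28 footprints per vehicle library and 22 to 39 per IFN-β library. The groups did not overlap, and the log2 fold change was 0.87 ± 0.21 (adjusted p = 0.039 in edgeR). This call at 2 h rests on narrow margins. Left out in turn, any of 7 of the 8 libraries ended it, with adjusted p from 0.074 to 0.13, and so did leaving out both cultures numbered 3 (0.69, adjusted p = 0.068). With the replicate block the difference was 0.86 (adjusted p = 0.0031). At 14 h the levels were 6.79, 6.97, 3.87 and 4.13 CPM with vehicle against 10.4, 12.1, 8.86 and 7.62 with IFN-β. All IFN-β cultures were above all vehicle cultures, by 0.84 ± 0.22 on the log2 scale (adjusted p = 0.0063).

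Ppp1r15b, the constitutive subunit, carried far more footprints than Ppp1r15a and passed the test only at 2 h with the block. The vehicle cultures at 2 h had 90.0, 72.0, 81.7 and 82.8 CPM and the IFN-β cultures 99.5, 88.1, 98.2 and 96.6 CPM. The ranges overlapped, but each of the 4 pairs was higher with IFN-β. The log2 difference of 0.23 ± 0.09 did not pass without the block (adjusted p = 0.20) and passed with it (0.23, adjusted p = 0.0023). Without both cultures numbered 3 it was 0.21 (adjusted p = 0.064). At 14 h the levels of 112 to 115 CPM with vehicle and 107 to 113 with IFN-β overlapped, with a log2 difference of -0.05 (95% interval -0.15 to 0.06). Per kb of CDS, footprints on Ppp1r15b were 29.2 ± 2.4 times those on Ppp1r15a with vehicle and 19.0 ± 4.6 times with IFN-β at 2 h, and 21.1 ± 6.3 and 11.0 ± 2.0 times at 14 h. As a group mean per kb, Ppp1r15a was the lowest of the 8 genes in every group, and with IFN-β its range overlapped that of Eif2ak4.

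At 2 h, 2 of the 8 genes passed the test without the block, both higher. Of all genes tested 7.25% passed, made up of 5.25% higher and 2.01% lower. The treatments did not overlap for the same number of genes, 2 of 8, against 12.9% of all genes. With the block 5 of the 8 passed, all higher, and 29.2% of all genes did. Without both cultures numbered 3, 3 of the 8 passed, namely Eif2ak2, Eif2s1 and Eif2s2, and 14.1% of all genes. At 14 h, 4 of the 8 passed, 2 higher and 2 lower, where 52.5% of all genes passed, 26.2% higher and 26.3% lower. All of these 4 were separate between treatments, against 46.2% of all genes, so that the number of genes passing at 14 h was near that of all genes. The block changed none of the 8 calls at 14 h.

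**Figure D3:**
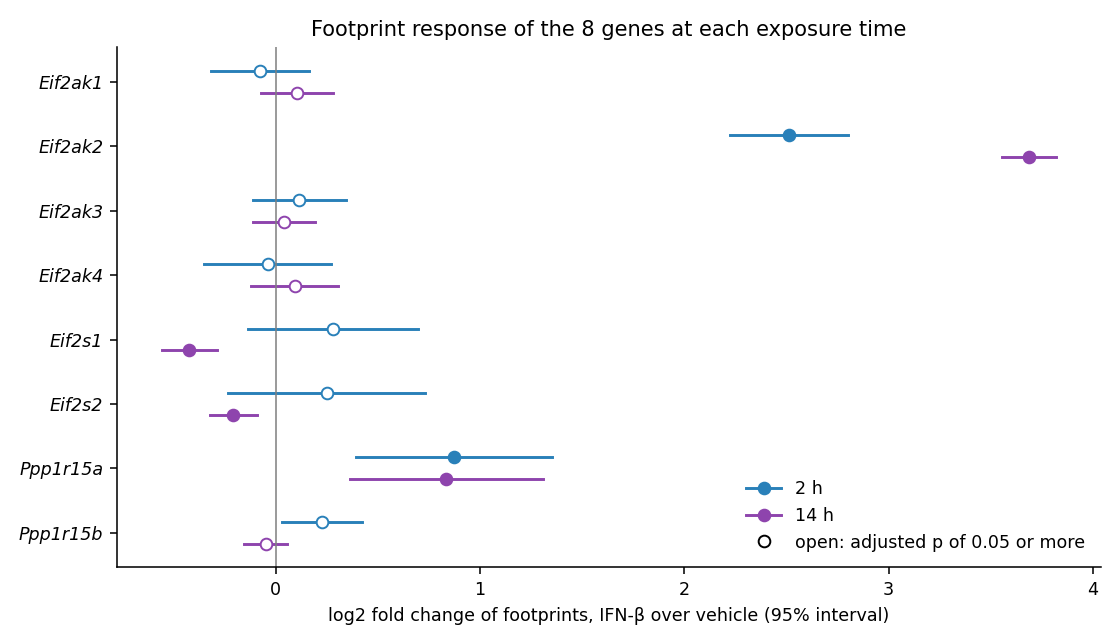
The log2 fold change of footprints, IFN-β over vehicle (x axis, with 95% intervals), of the 8 genes at 2 h in blue and 14 h in purple, from fits without the replicate block. Eif2ak2 lies at 2.51 and 3.69, Ppp1r15a at 0.87 and 0.84, and Eif2s1 and Eif2s2 are below 0 at 14 h alone.

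The response at 14 h was set against that at 2 h in a fit of all 16 footprint libraries. The response of Eif2ak2 was larger at 14 h by 1.18 ± 0.14 on the log2 scale (adjusted p = 9.14e-06 in edgeR). That of Eif2s1 was lower by -0.70 ± 0.20 (adjusted p = 0.016), from a positive difference at 2 h to a negative one at 14 h. For Ppp1r15b the difference was -0.26 ± 0.10 (adjusted p = 0.046), a call that 14 of 16 single-library omissions ended. With the block it was -0.27 (adjusted p = 0.0019), and without both 2 h cultures numbered 3 it was -0.24 (adjusted p = 0.016). For Eif2s2 it was -0.44 ± 0.23 without the block (adjusted p = 0.15) and -0.44 with it (adjusted p = 2.98e-06). Ppp1r15a differed by -0.02 (95% interval -0.65 to 0.61), an interval wide enough to hold a clear change either way. The 3 kinases other than Eif2ak2 differed by -0.05 to 0.19 and did not pass. In all, 3 of the 8 genes passed, 1 higher and 2 lower, where 30.9% of all genes passed, 15.4% higher and 15.5% lower. The times were run on different cultures that also differed in Y-linked footprints, as given above, and the time of exposure and that difference cannot be told apart.

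In total RNA, none of the 8 genes passed the test at either time. Total RNA counts on these genes were few. In addition, 2 vehicle libraries of total RNA stood apart by the chi-square per gene between pairs of a group. Vehicle library 5 at 2 h was at 435.7 to 531 against the others, which were at 40.3 to 59.7 among themselves. Vehicle library 3 at 14 h was at 225.4 to 273.5, and the others at 6.75 to 37.9. Among the IFN-β libraries of total RNA at 2 h, library 3 was at 70.6 to 122.1 and the others at 13.6 to 41. All of these libraries were kept in the main fits and left out in turn among the omissions. Eif2ak2 had 14, 15, 7 and 12 counts in vehicle cultures 2, 3, 5 and 6 at 2 h and 46, 48, 24 and 21 with IFN-β. The groups did not overlap, and the log2 difference of 1.34 ± 0.31 had an adjusted p of 0.093 in edgeR. At 14 h the counts were 6, 14, 1 and 1 with vehicle and 13, 15, 21 and 16 with IFN-β, a log2 difference of 1.08 ± 0.51 (adjusted p = 0.26). Without vehicle replicate 2, which held 14 of those counts, it was 2.13 (adjusted p = 0.013). Of the 8 genes, 7 could be tested at 2 h and 3 at 14 h, and 1 of them at each time had an unadjusted p under 0.05, Eif2ak2 both times. By DESeq2 none passed either. Over all genes 0.799% passed at 2 h and 6.3% at 14 h. Ppp1r15a was not tested in total RNA, with 0, 7, 2 and 4 counts with vehicle and 25, 8, 16 and 4 with IFN-β at 2 h, and 0 to 2 in every library at 14 h. Eif2ak1 was the exception in depth, with 92 to 1094 counts per library. Its exons overlap those of Ankrd61 and Aimp2 on the other strand over 659 bases, and the strand setting of the counting was not given in the sources used here, so that its total RNA level is uncertain. Among genes with a mean of at least 500 footprints, those with an exon overlap on the other strand had a median of 15.0 total RNA counts per library at 14 h and those with no gene there 6.12. Total RNA also departed from footprints in some marker genes. Sox2 and Tubb3 had 0 total RNA counts in every library, with 646 to 3537 and 140 to 860 footprints. Cx3cr1 had 0 footprints in every library and 95 to 3750 total RNA counts. Others had both, such as Nes with 94 to 1406 total RNA counts. The reason was not tested, and whether total RNA of the 8 genes followed their mRNA is uncertain.

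Translational efficiency (TE) was taken as the change in footprints beyond the change in total RNA, and inherits those low counts. At 2 h no gene of the 8 passed an adjusted p of 0.1, where 0.815% of all genes did, and 1 had an unadjusted p under 0.05. That was Eif2ak2, with a log2 difference of 1.21 ± 0.32 (adjusted p = 0.13 in edgeR). It passed with the replicate block (1.20, adjusted p = 0.078) and in DESeq2 (1.20, adjusted p = 0.032). At 14 h the TE of Eif2ak2 rose by 2.55 ± 0.51 on the log2 scale (adjusted p = 0.0021), and without vehicle replicate 2 the value was 1.47 (adjusted p = 0.18). Eif2s2 was the other gene to pass at 14 h (adjusted p = 0.020), in a comparison of 2, 3, 1 and 5 total RNA counts with vehicle against 0, 1, 0 and 0 with IFN-β. Without vehicle replicate 4, which held 5 of those counts, it did not pass (adjusted p = 0.104), and over the single-library omissions its log2 difference ran from 3.02 to 6.10. Vehicle over IFN-β in its total RNA was 14.4-fold, with an exact 95% counting interval of 2.10 to 620.5 that covers counting error only. Over all genes 8.45% passed at 14 h. The other 6 genes had log2 differences in TE between -0.28 and 0.23 and did not pass.

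The remaining parts of eIF2 and its exchange factor were read from a list of 11 genes. At 2 h 1 of 11 was higher and none lower, a number near the 7.25% of all genes that passed. At 14 h 2 of 10 tested were higher and 4 lower, with a median log2 difference of -0.20 against 0.00 over all genes. The 6 of 10 called at 14 h stand near the 52.5% of all genes. With the block 2 were higher and 6 lower at 14 h, where 62.8% of all genes passed. Eif2b3 and Eif2b1, subunits of the exchange factor eIF2B, fell at 14 h by 0.52 ± 0.07 and by 0.28 ± 0.07 on the log2 scale. Cdc123, an assembly factor of eIF2, fell by 0.35 ± 0.06, and Eif5, which drives GTP hydrolysis on eIF2, fell by 0.24 ± 0.09. Eif2b2, another eIF2B subunit, rose instead, by 0.59 ± 0.14 at 2 h and 0.28 ± 0.09 at 14 h. The X-linked γ subunit Eif2s3x gave at 2 h 33.6 to 45.6 CPM in vehicle cultures and 32.0 to 54.2 in IFN-β cultures, and 75.1 to 139 against 73.5 to 94.1 at 14 h. It did not pass at 2 h (0.17 ± 0.16) or at 14 h without the block (-0.26 ± 0.16, adjusted p = 0.19), and with the block it was lower at 14 h (-0.20, adjusted p = 0.0061). With its Y-linked copy added, the footprints on eIF2γ were 90.9 ± 7.2 CPM with vehicle at 2 h and 97.6 ± 28.6 at 14 h. The copies are near-identical, and reads that fit both could have been split between them by the counting.

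**Figure D4:**
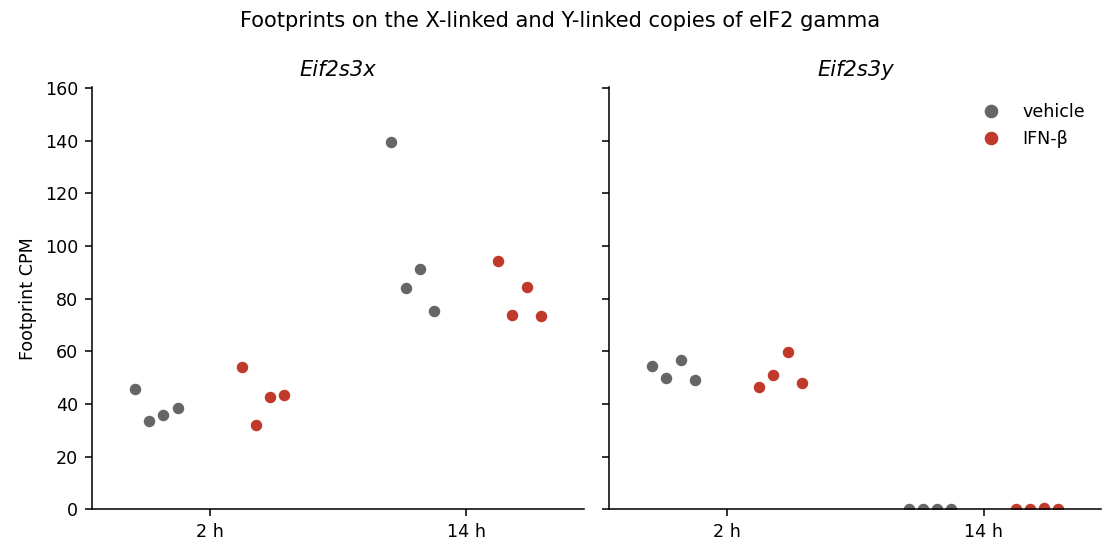
Footprint CPM (y axis) on the eIF2γ genes Eif2s3x and Eif2s3y in each library at 2 h and 14 h, vehicle in grey and IFN-β in red. Eif2s3y lies between 46.4 and 59.8 CPM in the 2 h libraries and at or near 0 in the 14 h libraries of both treatments.

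Of 4 partners of the phosphatase subunits none passed at 2 h, where 7.25% of all genes did. At 14 h Ppp1cb and Ppp1cc, which encode catalytic subunits of protein phosphatase 1, fell by 0.17 ± 0.05 and by 0.22 ± 0.07. That number is near the 52.5% of all genes that passed at 14 h. Ppp1ca, the third catalytic subunit, and the adaptor Nck1 did not pass.

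Of 9 genes that act on the kinases, 1 was higher at 2 h, and 5 were higher and none lower at 14 h, with a median log2 difference of 0.23 against 0.00 over all genes. Of all genes 7.25% passed at 2 h and 52.5% at 14 h, 26.2% higher and 26.3% lower, so that the number passing at 14 h was near that of all genes. Adar, which edits double-stranded RNA and thereby limits the activation of PKR, rose by 1.42 ± 0.11 at 2 h and 2.57 ± 0.06 at 14 h. Impact, an inhibitor of GCN2, rose by 0.76 ± 0.07 at 14 h. Hspa5, the chaperone that holds PERK inactive, rose by 0.38 ± 0.05. Prkra, a protein activator of PKR, rose by 0.26 ± 0.07 at 14 h. Dnajc3, an inhibitor of PERK and PKR, was the fifth gene higher at 14 h. Gcn1, which activates GCN2, did not pass at either time, and Dele1, which relays mitochondrial stress to HRI, passed only with the block at 2 h, when it was lower (-0.20, adjusted p = 0.027).

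The list of 10 effectors downstream of eIF2α phosphorylation had 1 gene higher and 1 lower at 2 h and 5 higher at 14 h, with medians of 0.40 and 0.46 against -0.02 and 0.00 over all genes. With the block 4 were higher and 1 lower at 2 h, and 6 higher and 1 lower at 14 h. Of all genes, 7.25% passed at 2 h and 52.5% at 14 h without the block, and 29.2% and 62.8% with it, so that at 14 h the number of effectors passing was near that of all genes in either fit. Atf4, the transcription factor translated more when eIF2α is phosphorylated, had 36.0, 17.7, 32.1 and 34.1 CPM of footprints with vehicle in cultures 2, 3, 5 and 6 at 2 h. The IFN-β cultures had 64.1, 32.0, 56.0 and 59.8 CPM. The cultures numbered 3 were the lowest in both groups. Its log2 difference of 0.82 ± 0.26 did not pass without the block (adjusted p = 0.11) and passed with it (0.82, adjusted p = 3.15e-10). Total RNA of Atf4 at 2 h was 3.87 ± 2.43 CPM with vehicle and 6.97 ± 4.64 with IFN-β (SD, n = 4). These rest on 3 to 29 and 13 to 77 counts per library. In TE none of the 10 effectors passed at 2 h, where 0.815% of all genes did. The footprint rise of Atf4 is thus not shown to be more translation per mRNA. At 14 h the Atf4 footprint levels of 70.8 to 102 CPM with vehicle and 69.9 to 109 with IFN-β overlapped (0.06 ± 0.15). Atf3, a stress-induced transcription factor, rose by 2.55 ± 0.33 at 2 h and 0.63 ± 0.21 at 14 h. Nupr1, a stress-induced chromatin protein, rose by 0.86 ± 0.15 at 14 h and passed at 2 h with the block alone (0.86, adjusted p = 0.016). Atf5, whose mRNA also carries upstream reading frames, rose by 0.64 ± 0.20 at 14 h. Trib3, a pseudokinase induced with CHOP, rose by 0.47 ± 0.17 at 14 h. Sesn2, an inhibitor of mTORC1, fell by 0.39 ± 0.09 at 2 h and rose by 0.45 ± 0.07 at 14 h. Ddit3, which encodes CHOP, did not pass at 2 h (0.39 ± 0.21). At 14 h it was at 0.71 ± 0.29 (adjusted p = 0.054), and it was higher with the block (0.72, adjusted p = 0.00013). With the block Asns, a target of ATF4, was higher at 2 h (0.21, adjusted p = 0.0021) and Chac1, another such target, was lower at 14 h (-0.33, adjusted p = 0.020).

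**Figure D5:**
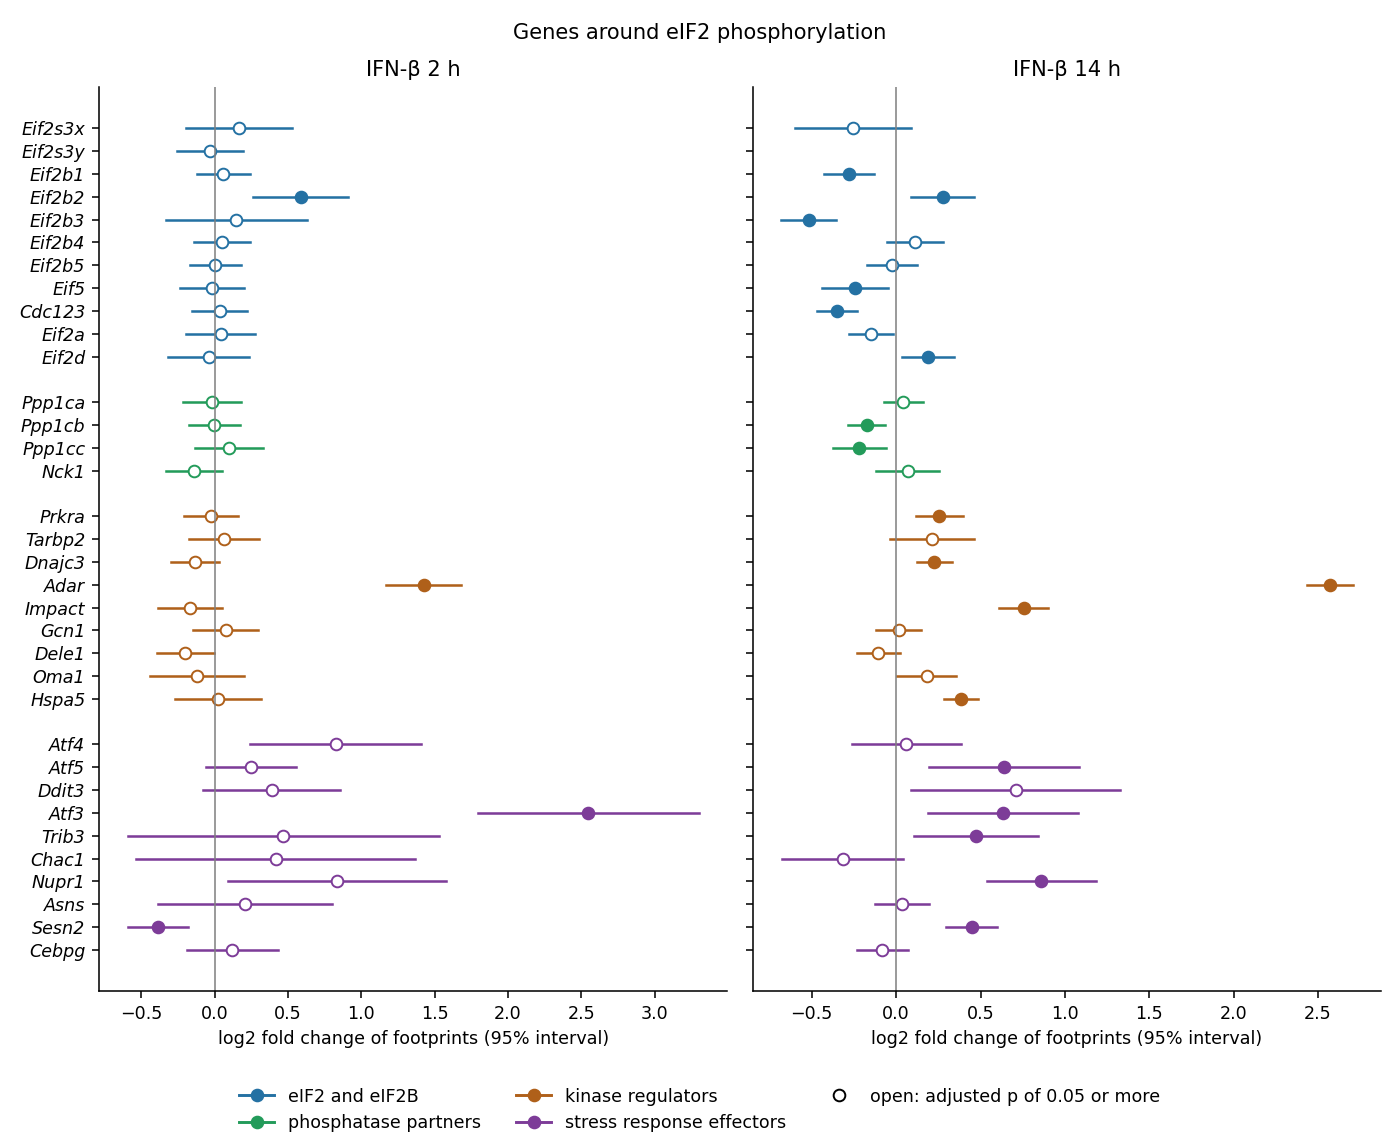
The log2 fold change of footprints with 95% intervals (x axis) for 4 lists of genes around eIF2 phosphorylation at 2 h (left) and 14 h (right), without the replicate block, with filled points for an adjusted p under 0.05. Adar, at 1.42 and 2.57, and Atf3, at 2.55 and 0.63, lie farthest to the right at 2 h.

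Among the genes whose footprints followed Eif2ak2 most closely over the 16 footprint libraries, of 9943 compared, were Samd9l, Tgtp2, Tgtp1 and Zc3hav1. Pearson's r of log2 CPM was 0.999 for Samd9l and 0.995 for Zc3hav1, a description of libraries that share a treatment and an exposure time.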

How the data were processed

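The deposited values are raw read counts per gene. The authors trimmed reads with Trim Galore 0.4.4, mapped them with Bowtie 0.12.7 to the mm10 transcriptome, removed duplicated reads and counted the remainder in "Union" mode. Duplicates were removed without molecular identifiers, which can lower counts on short, heavily covered CDS. Every column was used and 0 were left out. Groups came from the sample titles.

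Counts were fitted in R 4.3.3 with edgeR 4.0.16 (TMM, quasi-likelihood test, two-sided, Benjamini-Hochberg adjustment over every gene that reached 10 counts in 4 or more libraries). A gene passed below an adjusted p of 0.05. For TE, fitted as an interaction between library kind and treatment, the limit was 0.1. CPM were scaled by TMM within each time, so levels at 2 h and 14 h were scaled separately. DESeq2 1.42.0, total-count scaling, other filters, the replicate block and single-library omissions were alternatives. CDS length is the union of coding bases in GENCODE M21. Scripts were tested on simulated data.

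Same-numbered footprint cultures deviated together, with r of 0.47 to 0.86 at 2 h and 0.26 to 0.52 at 14 h. No 2 libraries were identical. Named genes are the 8 genes, Atf4, Ddit3 and Eif2s3x, and at most 4 called genes of each list by size, with the genes most correlated with Eif2ak2. A gene that this rule also names is not reported here. Genes named beyond these (Eif5, Dnajc3, Dele1, Gcn1, Sesn2, Asns, Chac1, Ppp1ca, Nck1, Eif2s3y and the Y-linked genes) were chosen after their values were seen. The members and lists were chosen with earlier results of these data known.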

Additional observations from a re-analysis of the deposited data

Results flagged for a closer look

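Each set of values was a gene in a group of 4 libraries with at least 40 counts in all. The gap from 1 library to its nearest other was taken as a share of the range of the 4. In 4 of 51 sets this share passed a limit that chance passes in about 1 of 20 sets. Eif2s1 and Eif2s2 footprints were low in vehicle culture 3 at 2 h, at 63.3 and 75.9 CPM. Eif2ak4 was low in the same culture, at 15.9 CPM. Eif2ak3 was high in IFN-β culture 1 at 14 h, at 73.4 CPM. The response to IFN-β differed between 14 h and 2 h, by the interaction of time and treatment, for Eif2ak2 (1.18 on the log2 scale), for Eif2s1 (-0.70) and for Ppp1r15b (-0.26).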

How the results depend on the processing

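The footprint calls on Eif2ak2 at both times, and those on Eif2s1, Eif2s2 and Ppp1r15a at 14 h, held under every alternative run. At 2 h the number of the 8 genes called in footprints was 2; it was 1 with library sizes by total counts alone, 1 without the filter on low counts, 1 with a mean of at least 50 counts (where 7 genes were tested), 5 with the replicate block, and 1 to 2 with single libraries left out, with Ppp1r15a as the call lost. It was 1 against 0 for TE at 2 h with the replicate block and with DESeq2, 0 against 2 for TE at 14 h with a mean of at least 50 counts (where 1 gene was tested), and 0 to 1, 0 to 1 and 1 to 2 with single libraries left out for total RNA at 14 h, TE at 2 h and TE at 14 h. Over single-library omissions the log2 difference of Eif2ak2 was 0.61 to 2.13 in total RNA at 14 h, 1.00 to 1.33 in TE at 2 h and 1.47 to 3.01 in TE at 14 h; in TE at 2 h it was 1.20 with the replicate block and 1.20 with DESeq2. The cause of these changes was not tested.

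Values that changed sign were not called in either fit. With single libraries left out they ran, for Eif2ak1, from -0.13 to 0.00198 in footprints at 2 h, -0.0159 to 0.25 and -0.29 to 0.0193 in total RNA at 2 h and 14 h, and -0.35 to 0.0490 in TE at 2 h. For Eif2ak3 they ran from -0.00844 to 0.0832 in footprints at 14 h. For Eif2ak4 they ran from -0.12 to 0.0435 in footprints at 2 h, -0.17 to 0.14 in total RNA at 2 h, and -0.21 to 0.27 and -0.43 to 0.0255 in TE at 2 h and 14 h. For Eif2s1 they ran from -0.13 to 0.14 in total RNA at 2 h and -0.59 to 0.18 in TE at 14 h, and for Eif2s2 from -0.31 to 0.12 in total RNA at 2 h. For Ppp1r15b they ran from -0.10 to 0.25 and -0.0723 to 0.44 in TE at 2 h and 14 h, and for Ppp1r15a from -3.28 to 0.80 in TE at 14 h and -0.15 to 0.15 between the times. With total counts alone the values were 0.0461 for Eif2s2 in total RNA at 2 h, 0.0567 for Eif2ak1 at 14 h, -0.0834 for Eif2s1 and -0.20 for Ppp1r15b in TE at 2 h, and 0.00173 for Ppp1r15a between the times. With single libraries left out, Eif2s1 in TE at 2 h had stayed positive, at 0.09 to 0.59. In total RNA at 2 h Eif2ak4 was at -0.0103 without the filter, -0.0172 in DESeq2 and -0.0141 with the replicate block. Ppp1r15a in TE at 14 h was 0.12 in DESeq2 and 0.10 with the replicate block, and between the times 0.0215 with the block and 0.15 without both 2 h cultures numbered 3.

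Total RNA cultures of the same number did not deviate together, with r from -0.66 to 0.53, so the replicate block there, and in TE, rests on the number alone. Few total RNA counts limit every statement on total RNA and TE of these genes. So does the departure of total RNA from footprints in the marker genes given above.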

Other observations

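Total RNA counts on the Y-linked genes were low at both times. Kdm5d had 8 to 26 counts per library at 2 h and 0 to 9 at 14 h, Eif2s3y 2 to 10 and 0 to 3, Uty 2 to 13 and 0 to 8, and Ddx3y 0 to 7 and 0 to 1. These raw counts do not compare levels between the times. Total RNA libraries held 3992402 to 7877753 counts at 2 h and 1370008 to 2737111 at 14 h. As CPM, total RNA of Eif2s3y was 1.38 at both times with vehicle, and 1.58 at 2 h and 0.63 at 14 h with IFN-β. In footprints Kdm5d had 2344 counts over the 8 libraries at 2 h and 2 over the 8 at 14 h.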
